A study of Ovis aries with 4 samples.

Results

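The mitochondrial ribosomal protein genes, here the genes whose symbol is MRPL or MRPS followed by a number and at most 1 letter, are described in sheep conceptuses at day 14 of pregnancy. The symbol rule found 66 genes among the 25197 features of the deposited table, 41 with an MRPL symbol (large subunit) and 25 with an MRPS symbol (small subunit). Each symbol occurred once, and all 66 genes were above 0 in every library. The material was 4 conceptuses flushed from the uterus, 1 from each of 4 Columbia/Rambouillet crossbred ewes, called conceptus 1 to 4 from here on. The conceptus comprises the embryo and its membranes, and during elongation most of it is trophectoderm, the outer epithelium that later forms the placenta. Ribosome-depleted total RNA of each was sequenced as 1 library. There is no treatment and no second group, so the data give levels and the spread between 4 animals. Values are RPKM, reads scaled to transcript length and library size, as the authors deposited them. Because of the scaling to length, levels can be set side by side between genes. The replicates are separate conceptuses of separate ewes.

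Mitochondria carry their own ribosome, the mitoribosome, which makes only the few proteins that mitochondrial DNA encodes, all of them subunits of the oxidative phosphorylation complexes. Its ribosomal RNAs come from mitochondrial DNA, whereas every one of its proteins is encoded in the nucleus, made in the cytosol and imported. Some of these proteins descend from bacterial ribosomal proteins, and others were added during the evolution of mitochondria. The elongating ruminant conceptus is a rapidly growing epithelium with high demands for ATP and biosynthesis.

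Read counts are not part of the table. From the most frequent ratio of values among features above 0 in exactly 2 libraries, conceptuses 2, 3 and 4 had about 0.750, 1.03 and 0.664 times the depth of conceptus 1, and only 27.1% to 33.3% of these features lay near that ratio. Markers of trophectoderm and of other cell types were read in the whole conceptuses. KRT8, a keratin of simple epithelia, was at 4983 to 8256 RPKM, and 6 of 8 measured trophectoderm markers averaged 5 RPKM or more, ELF5 at 2.96 and TEAD4 at 3.945 RPKM being the exceptions. The summed level of 4 measured of 5 listed leukocyte markers was 1.23 to 2.19 RPKM. That of 2 measured of 5 listed blood and endothelium markers was 0.29 to 0.79 RPKM. For 5 stromal markers it was 1.35 to 6.89 RPKM. In whole conceptuses, fewer cells of a type and less RNA per cell cannot be told apart.

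All 66 mitochondrial ribosomal protein genes averaged 5 RPKM or more, and each was at 5.36 RPKM or above in every single library. Genes of this family that are not listed among the features under such a symbol are outside this count. Over all features of the table, 25.3% reached an average of 5 RPKM and 21.9% reached 5 RPKM in every library. The members' means had a median of 37.5 RPKM, against 17.3 RPKM for the 6372 features that average 5 RPKM or more and are never 0, and 1.43 RPKM for all features with a symbol. Of the 66 genes, 58 (87.9%) lay above that 17.3 RPKM. Together they summed to 3740, 2976, 2576 and 3207 RPKM in conceptuses 1 to 4, which was 0.749%, 0.655%, 0.546% and 0.614% of each library's summed RPKM. These 6372 are called comparison features from here on.

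The members formed a continuous range of levels and not separate classes. The highest mean was 27.6 times the lowest, and 38 of the 66 means lay between 20 and 60 RPKM. When members were ordered by mean, the 4 values of a gene overlapped with those of the next lower gene in 64 of 65 neighbouring pairs. The exception was the last pair, MRPS23 and MRPL32. Compared within each conceptus, the gene of higher mean was above the next in 4 of 4 conceptuses in 3 pairs, MRPL12 over MRPS21, MRPS14 over MRPL35 and MRPS23 over MRPL32. In the other 62 pairs it was above the next in 1 to 3 conceptuses.

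**Figure D1:**
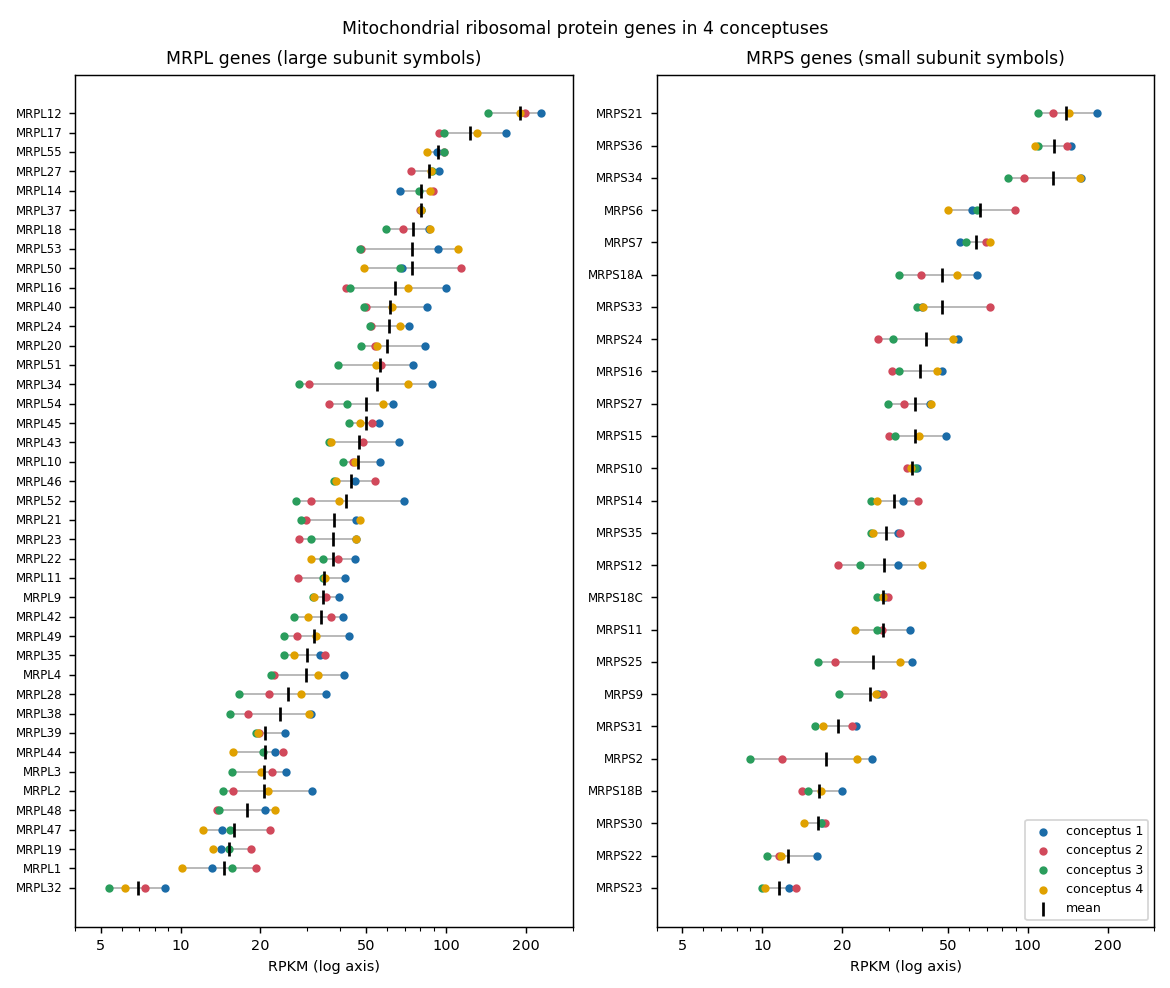
RPKM (log axis) of the 41 MRPL genes and the 25 MRPS genes in each of 4 conceptuses, ordered by mean within each panel; coloured points are conceptuses, black ticks the means and grey lines the range. MRPL12 and MRPS21 lead the panels at means of 190.3 and 139.8 RPKM, MRPL32 and MRPS23 close them at 6.895 and 11.6 RPKM, and the 4 points of MRPL37 coincide.

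Means of at least 100 RPKM were reached by 5 of the 66 members, beside 2.65% of all features. Among the 6372 comparison features 668 reached it, a larger share than among the members. MRPL12, the protein of the flexible stalk that recruits translation factors to the ribosome, was the highest, at 228, 198, 144 and 191 RPKM in conceptuses 1 to 4 (190.3 ± 34.6 RPKM; SD, n = 4). MRPS21, of the small subunit, followed with 182, 125, 109 and 143 RPKM. Both were highest in conceptus 1 and lowest in conceptus 3, and although their ranges overlapped, MRPL12 was the higher in each conceptus. MRPS36 was at 146, 140.4, 109 and 106 RPKM. The human protein of that name is now placed in the oxoglutarate dehydrogenase complex of the citric acid cycle and not in the ribosome, so MRPS36 is a member here by its symbol. Leaving it out set the members' median at 37.5 RPKM, as before.

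MRPS34, a protein found only in mitochondrial ribosomes, was at 158 RPKM in both conceptus 1 and conceptus 4, and at 96.5 and 84.2 RPKM in conceptuses 2 and 3. MRPL17, which lines the outlet of the peptide tunnel, was at 169, 94.05, 98.4 and 131 RPKM. In both genes conceptuses 1 and 4 lay above conceptuses 2 and 3. The next members were steadier. MRPL55 was at 92.1, 98.2, 98.2 and 84.5 RPKM, MRPL27, whose bacterial counterpart reaches the peptidyl transferase centre, at 94.2, 73.85, 88.5 and 87.9 RPKM, and MRPL14, at the interface between the subunits, at 67.1, 89.7, 79.0 and 86.85 RPKM. The 8 genes of highest mean held 30.8% of the summed mean RPKM of all 66.

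The low end held genes of both subunits. MRPL32, a large subunit protein whose trimming by a protease of the inner membrane precedes ribosome assembly in yeast and mouse, was at 8.72, 7.33, 5.36 and 6.17 RPKM. It was the lowest member in each conceptus. MRPS23 and MRPS22, both without a bacterial counterpart, were at 12.6, 13.4, 10.02 and 10.3 RPKM and at 16.1, 11.6, 10.4 and 11.7 RPKM. MRPL1, the protein of the stalk at which transfer RNAs leave, was at 13.2, 19.3, 15.6 and 10.15 RPKM, and MRPL19 at 14.15, 18.5, 15.2 and 13.3 RPKM. These last genes and MRPL47, at 14.4, 21.8, 15.3 and 12.1 RPKM, shared conceptus 2 as their highest and conceptus 4 as their lowest library. MRPS30 was at 16.8, 17.2, 16.7 and 14.4 RPKM with 3 nearly equal values, and MRPS18B at 20.05, 14.1, 14.85 and 16.7 RPKM with conceptus 1 on top.

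The MRPL genes stood slightly above the MRPS genes. Their median of log2(RPKM + 1) was higher by 0.32, 0.26, 0.33 and 0.12 in conceptuses 1 to 4, a difference of 0.26 ± 0.09 on the log2 scale (SD, n = 4) in the same direction in 4 of 4 animals. The same genes were compared in each animal, so this SD and the count of animals do not measure the spread between genes. The median of the means was 41.9 RPKM for MRPL and 31.25 RPKM for MRPS genes, within ranges that overlap almost wholly. The symbols do not match the subunits throughout, since structures of the mammalian mitoribosome place MRPS18A and MRPS30 in the large subunit. With both counted there and MRPS36 left out, a grouping chosen after the data were examined, the difference was again 0.26.

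Proteins classed as bacterial-type and as specific to mitochondria were compared within each subunit, placing MRPS18A and MRPS30 in the large one. The classes follow the names used for mitoribosome structures and not descent alone, since MRPS18A and MRPS18B, classed as specific, are related to the bacterial-type MRPS18C. In the large subunit 18 measured of 21 listed mitochondria-specific genes had a median of 45.6 RPKM. The 25 measured of 30 listed bacterial-type genes had one of 37.6 RPKM. In the small subunit the order was the other way. There the median was 26.2 RPKM over 9 measured of 11 listed mitochondria-specific genes. It was 36.8 RPKM over 13 measured of 16 listed bacterial-type genes. The highest mitochondria-specific genes were MRPL37 at 80.5 ± 0.289 RPKM and MRPS34 at 124 ± 39.4 RPKM. No test was made over these lists.

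Within the stalk, MRPL12 far exceeded MRPL10, the protein that anchors it, and MRPL11, which sits at its base. MRPL10 was at 56.3, 44.6, 40.8 and 45.25 RPKM, and MRPL11 at 41.8, 27.8, 34.4 and 34.9 RPKM. In bacteria and mitochondria several copies of the stalk protein bind 1 anchor protein. MRPL12 exceeded MRPL10 by 1.99 ± 0.142 and MRPL11 by 2.42 ± 0.308 on the log2(RPKM + 1) scale (SD, n = 4), with RPKM ratios of 3.53 to 4.45 and of 4.20 to 7.14. Both differences had the same direction in 4 of 4 conceptuses, and the lowest MRPL12 value, 144 RPKM, was above the highest MRPL10 value, 56.3 RPKM.

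The paralogs MRPS18A, MRPS18B and MRPS18C descend from the same bacterial protein and occupy different places in the mammalian mitoribosome, MRPS18A in the large subunit and the others in the small. MRPS18A was at 64.2, 39.7, 32.8 and 54.2 RPKM, and MRPS18C was at 29.03, 29.7, 27.1 and 28.4 RPKM. MRPS18A stood above MRPS18C and MRPS18C above MRPS18B in each conceptus, and the 3 ranges did not overlap. In the RefSeq assembly ARS-UI_Ramb_v3.0, MRPS18A and MRPS18C overlap protein-coding genes and MRPS18B does not. Without stranded counting, shared reads could enter the values of MRPS18A and MRPS18C. The difference of MRPS18B over MRPS18A was −1.45 ± 0.257, that of MRPS18B over MRPS18C −0.77 ± 0.212 and that of MRPS18A over MRPS18C 0.68 ± 0.404 on the log2(RPKM + 1) scale (SD, n = 4). Together with the stalk genes 5 pairs were compared. An exact permutation of signs over the 4 conceptuses (two-sided) returned p = 0.13 for every pair, and again 0.13 after Benjamini-Hochberg adjustment over the 5 pairs. That is the smallest value 4 conceptuses allow, so none of these pairs can pass 0.05.

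Around the outlet of the peptide tunnel, where the new protein meets the inner membrane, the 8 genes of the list had a median of 37.5 RPKM. After MRPL17 the highest was MRPL24 at 60.9 ± 10.6 RPKM, followed by MRPL45, which tethers the ribosome to the membrane, at 49.8 ± 5.75 RPKM. MRPL39 and MRPL44, mitochondria-specific proteins related to a transfer RNA synthetase and to a ribonuclease, were at 20.8 ± 2.65 and 20.8 ± 3.73 RPKM. The central protuberance, the crown of the large subunit, had 6 listed genes with a median of 52.8 RPKM. They ranged from MRPL48 at 17.8 ± 4.64 and MRPL38 at 23.7 ± 8.18 RPKM up to MRPL18 at 75.4 ± 13.5 and MRPL27 at 86.1 ± 8.66 RPKM. Neighbours in the finished ribosome thus differed several-fold in transcript level.

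The level of the mitoribosomal genes was set beside other lists of the same system. Proteins of the ribosome that carry other symbols, with the insertase OXA1L that binds its tunnel outlet, had a median of 46.7 RPKM over 8 genes. They ranged from DAP3, a GTP-binding protein of the small subunit, at 8.65 ± 0.877 RPKM to AURKAIP1 at 129 ± 24.6 RPKM. Genes that act on the ribosome were lower. The 14 measured translation factors and messenger RNA binding proteins had a median of 14.4 RPKM, from MTFMT, which formylates the initiator transfer RNA, at 5.21 ± 0.760 RPKM to SLIRP, a partner of LRPPRC in messenger RNA stability, at 210 ± 22.7 RPKM. The initiation factor MTIF3 at 51.8 ± 9.65 and the elongation factor GFM1 at 47.1 ± 11.2 RPKM came next.

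Assembly factors and ribosomal RNA modifiers were lower still, with a median of 9.345 RPKM over 18 measured of 26 listed genes and 16 of them at 5 RPKM or more on average. MTERFD2, RBFA and RPUSD4 led that list at 34.8 ± 6.38, 17.9 ± 4.21 and 16.4 ± 2.56 RPKM, and the RNA methyltransferase MRM1 closed it at 3.62 ± 1.48 RPKM. Genes of mitochondrial DNA transcription and maintenance had a median of 10.7 RPKM over 16 measured genes, led by HSD17B10 at 79.3 ± 21.1, SSBP1 at 49.05 ± 8.09 and ELAC2 at 33.75 ± 7.88 RPKM. PPARGC1A, the coactivator of mitochondrial biogenesis known from muscle and brown fat, was the lowest at 0.53 ± 0.258 RPKM. Structural proteins of the mitoribosome were thus at higher median levels than the lists of factors that build or serve it.

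The lists of oxidative phosphorylation and of the cytosolic ribosome had higher medians. Nuclear-encoded subunits of oxidative phosphorylation had a median of 87.9 RPKM over 59 genes, with 52 averaging 5 RPKM or more and ATP5G3 highest at 887 ± 248 RPKM. Their mitochondrially encoded partners had a median of 99 RPKM over 11 genes, led by COX1 at 1829 ± 389 RPKM. Cytosolic ribosomal protein genes, the counterparts in the main ribosome of the cell, had a median of 618 RPKM over 45 genes. The 66 mitoribosomal genes summed to 3740, 2976, 2576 and 3207 RPKM in conceptuses 1 to 4, against 35126, 29366, 27201 and 35436 RPKM for the cytosolic list. Of those 45 genes 37 averaged 1 RPKM or more and 35 averaged 5 RPKM or more. Both lists hold only the symbols found among the features, so neither sum need be that of a whole ribosome. Zeros in the cytosolic list, such as RPL5 and RPL18, are values listed at 0 in all 4 libraries, for genes every cell uses, and are no measure of absence.

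**Figure D2:**
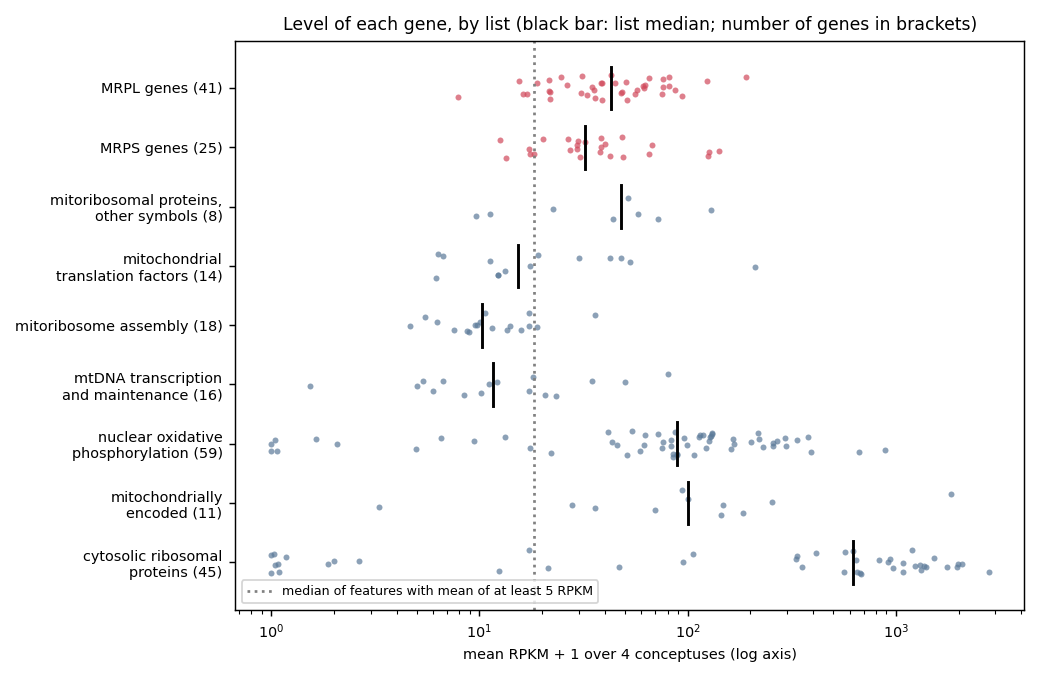
Mean RPKM + 1 over 4 conceptuses (log axis) of each gene, by list, with the list median as a black bar and the number of measured genes in brackets. The MRPL and MRPS genes (red) have medians of 41.9 and 31.25 RPKM, below oxidative phosphorylation and cytosolic ribosomal proteins and above assembly and transcription factors; the dotted line marks 17.3 RPKM.

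In most members the highest conceptus was at most 2 times the lowest. The median coefficient of variation of the 66 genes was 20.7%, against 20.5% for the comparison features. In 11 members (16.7%) the top conceptus exceeded the bottom one by more than 2 times, beside 21.8% of those features, and in 7 when libraries were scaled to a median ratio of 1, beside 20.1%. Without conceptus 1 the count was 6, beside 15.1% of features, and without conceptus 3 it was 7, beside 16.1%. It was 12 beside 21.4% with equal sums, 9 beside 12.6% without conceptus 2 and 8 beside 16.5% without conceptus 4. A coefficient of variation under 10% was found in 5 members (7.58%), beside 12% of features. That count was 8, beside 12.8%, with a median ratio of 1, and 13, beside 17.4%, without conceptus 1. Without conceptus 2 or conceptus 3 it was 8, beside 20.4% and 17.4%. The members' median spread was thus near that of the features as deposited, and no test was made of these shares.

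MRPL34, a small protein of the large subunit, had the widest range. It was at 88.8 and 71.95 RPKM in conceptuses 1 and 4, and at 30.5 and 27.9 RPKM in conceptuses 2 and 3. MRPS2 showed the same order, with 25.9 and 22.7 RPKM in conceptuses 1 and 4, and 11.9 and 9.01 RPKM in conceptuses 2 and 3. So did MRPL16, a protein near the peptidyl transferase centre, at 99.9 and 71.9 RPKM, against 41.9 and 43.5 RPKM, and MRPL53 at 92.9 and 110.7 RPKM, against 47.9 and 47.2 RPKM. MRPL52 was at 69.6 RPKM in conceptus 1, at 39.7 RPKM in conceptus 4 and at 31.05 and 27.3 RPKM in conceptuses 2 and 3. MRPL50 departed from this order, with 114 RPKM in conceptus 2, 68.5 and 67.0 RPKM in conceptuses 1 and 3 and 49.2 RPKM in conceptus 4. Of the 11 members over 2 times, 10 had conceptuses 1 and 4 above conceptuses 2 and 3, beside 49% of the comparison features over 2 times, and MRPL50 was the exception.

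At the other end, MRPL37, a mitochondria-specific protein of the large subunit, was at 80.6, 80.05, 80.7 and 80.5 RPKM. Its coefficient of variation was 0.359% in the values as deposited, where no comparison feature had a smaller one. This evenness depended on the scaling: the coefficient was 5.94% with equal library sums and 6.04% with a median ratio of 1, and 209 and 227 of the 6372 features were then below it. MRPS18C and MRPS10 varied by 3.88% and 3.98% as deposited, and by 5.89% and 5.95% with a median ratio of 1. MRPS10 was at 38.3, 35.0, 37.6 and 36.3 RPKM. MRPL55 and MRPS30 varied by 6.97% and 7.94% as deposited, and by 12.2% and 11.6% with a median ratio of 1. MRPL9 was at 39.5, 35.2, 31.6 and 31.75 RPKM, a ratio of 1.25 between the extremes. No test was made of evenness.

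**Figure D3:**
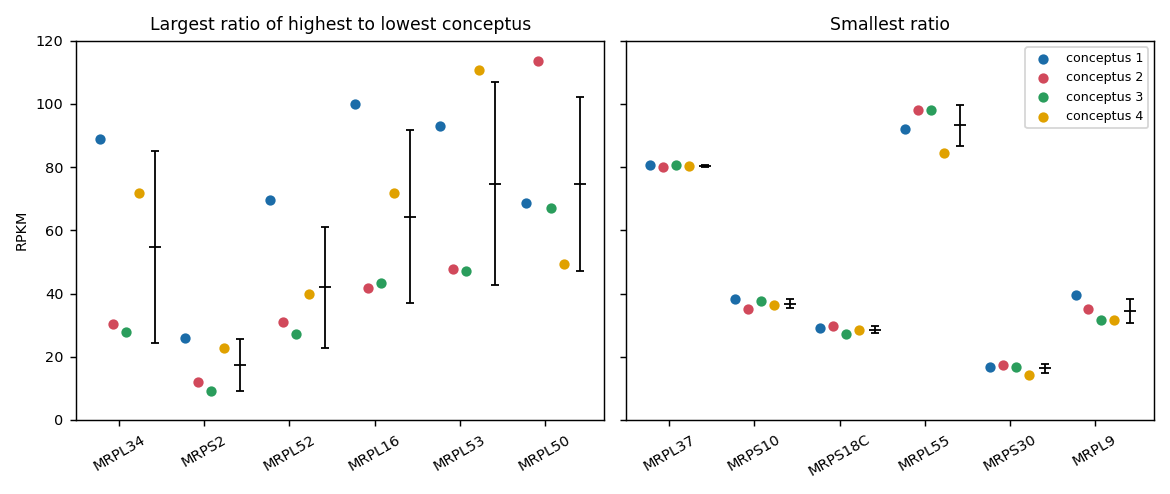
RPKM of the 6 members with the largest and the 6 with the smallest ratio of the highest to the lowest conceptus; coloured points are conceptuses and black bars the mean with SD (n = 4). In 5 of the 6 wide members conceptuses 1 and 4 lie above conceptuses 2 and 3, an order that 49% of the comparison features over 2 times share. As deposited, MRPL37 lies between 80.05 and 80.7 RPKM, and with equal library sums between 75.04 and 85.8 RPKM.

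The spread of each feature was tested with limma on log2(RPKM + 1), as an upper-tail F test of its variance against the trend over the 9602 features that average 1 RPKM or more. With Benjamini-Hochberg adjustment at 0.05, limma called 0 of 66 members and 0 of 9602 features (0%). At an unadjusted p under 0.05, limma found 2 members (3.03%), beside 4.85% of all features. These were MRPL34 and MRPS2, at an unadjusted p of 0.0195 and 0.0431 and a limma adjusted p of 0.984 each. On simulated data this test called only shifts of 1 library far beyond the widest range of any member, so the absence of calls does not show that the animals were alike.

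**Figure D4:**
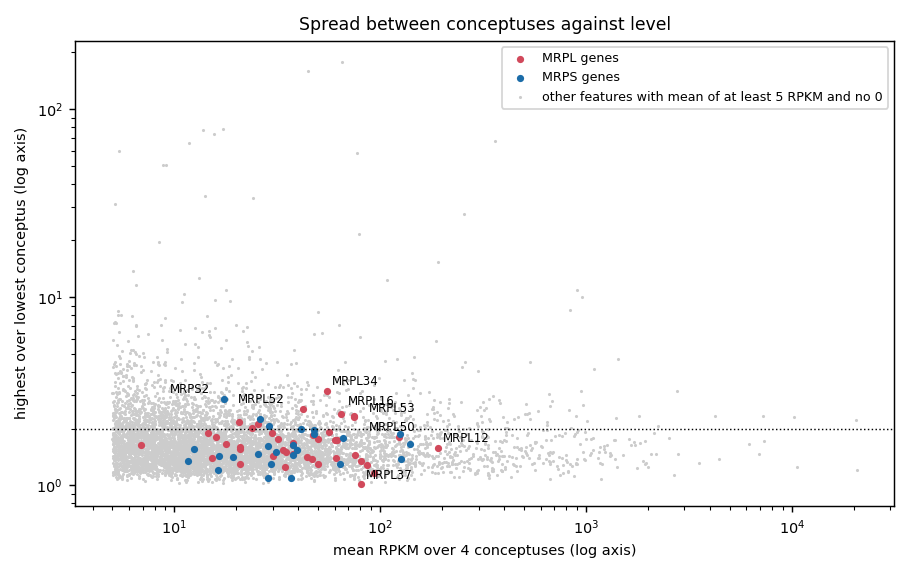
Ratio of the highest to the lowest conceptus against mean RPKM (both axes log) for the MRPL genes (red), the MRPS genes (blue) and the other comparison features (grey). The dotted line marks a ratio of 2, exceeded by 11 of 66 members; MRPL34 is highest at 3.18 and MRPL37 lowest at 1.01.

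The members leaned the same way in conceptus 1 and conceptus 3. The highest library was conceptus 1 for 41 members (62.1%), beside 33.9% of the comparison features, and the lowest was conceptus 3 for 39 members (59.1%), beside 31.2% of features. After scaling to a median ratio of 1, which lowered conceptus 1 by 0.10 and raised conceptus 3 by 0.09 on the log2 scale, these counts were 32 members beside 24.3% of features and 24 members beside 22.3%. With equal sums they were 40 members beside 32.0% of features and 28 members beside 27.0%. The median deviation from a gene's own mean was 0.28, −0.07, −0.25 and 0.02 in conceptuses 1 to 4 on the log2(RPKM + 1) scale, against 0.09, −0.05, −0.08 and 0.05 for the comparison features. The members' deviation minus that of these features was 0.18 in conceptus 1 and −0.16 in conceptus 3. Scaling moves members and features of a library alike, so apart from the pseudocount it could not change this difference. Of the other libraries, the highest was conceptus 2 for 16 members beside 26.2% of features, conceptus 3 for 2 beside 14.4% and conceptus 4 for 7 beside 25.5%. The lowest was conceptus 2 for 14 members beside 31.8% of features, conceptus 4 for 11 beside 20.3% and conceptus 1 for 2 beside 16.8%. No test of this lean was made.

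Other measures of the same libraries are given beside it. The summed stromal markers COL1A1, COL1A2, COL3A1, DCN and LUM were at 6.89 RPKM in conceptus 3 and at 1.35 to 1.86 RPKM in the others, with LUM listed at 0 in conceptus 1. The 6 trophectoderm markers that average 5 RPKM or more had median deviations of 0.19, −0.08, −0.21 and 0.05 in conceptuses 1 to 4. These had the same sign as the members' in each conceptus, as did the comparison features at 0.09, −0.05, −0.08 and 0.05. Of the 6 markers, 3 were highest in conceptus 1 and 1 in conceptus 3. The lowest was conceptus 3 for 3 of them and conceptus 1 for 1. Conceptuses 1 and 3 were the deeper libraries, at nearly equal depth by the ratios given above. The part of these measures in the lean of the members was not tested.

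Within that lean the members followed different orders. Conceptuses 1 and 4 were both above conceptuses 2 and 3 in 32 members (48.5%), beside 37.7% of features, and the group included MRPS21, MRPL17, MRPS34, MRPL34 and MRPS2. Conceptuses 1 and 2 were both above the other two in 23 members (34.8%), beside 18.8% of features, among them MRPL12, MRPL50, MRPL45, MRPL44 and MRPS30. Conceptuses 2 and 3 led in 5 members beside 17.7% of features, among them MRPL55, MRPL1, MRPL19 and MRPL47. Conceptuses 1 and 3 led in 3 members beside 6.5%, conceptuses 2 and 4 in 3 members beside 7.36%, and conceptuses 3 and 4 in 0 members beside 11.9%. As deposited, genes of 1 ribosome thus did not share a single order of the animals. Orders were taken without a margin, so in steady genes such as MRPL37, at 80.05 to 80.7 RPKM, they rest on small differences.

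The same deviations in related lists are given for comparison. In conceptuses 1 to 4, mitoribosome assembly genes had medians of 0.18, 0.00, −0.26 and 0.07, cytosolic ribosomal proteins 0.18, −0.15, −0.25 and 0.19, and nuclear oxidative phosphorylation subunits 0.19, −0.21, −0.12 and 0.12. Mitoribosomal proteins under other symbols had 0.19, −0.06, −0.23 and 0.08, and genes of mitochondrial DNA transcription and maintenance 0.26, −0.02, −0.31 and −0.08. In all these lists, as in the mitoribosomal genes, conceptus 1 was above 0 and conceptus 3 below 0. The comparison features had these signs too, at 0.09 and −0.08, so the signs are not particular to the lists. The translation factors differed, with medians of −0.01, 0.11, −0.05 and −0.09, and 7 of their 14 genes were highest in conceptus 2. Mitochondrially encoded genes had 0.15, 0.78, −0.04 and −0.79. Of the 66 mitoribosomal genes 16 were highest in conceptus 2 and 11 lowest in conceptus 4, against 8 and 8 of the 10 mitochondrially encoded genes that average 5 RPKM or more. Of those 10, 1 was highest in conceptus 1 and 1 in conceptus 3. The latter was MT-CO2, at 906 RPKM there and at 32.6 to 39.2 RPKM in the others. Most transcripts that the mitoribosome reads and most transcripts for its proteins thus had their highest values in different animals. This difference was not tested.

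**Figure D5:**
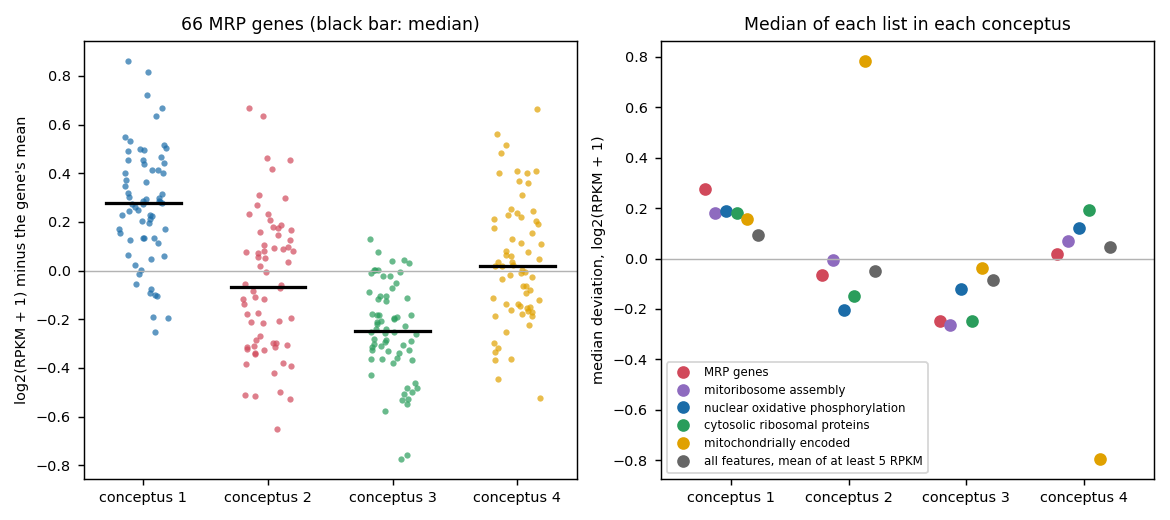
Left, deviation of each of the 66 genes from its own mean over 4 conceptuses (log2(RPKM + 1)), with medians as black bars. Right, the median deviation of the mitoribosomal genes and of 4 other lists, with the comparison features in grey: the mitoribosomal genes are at 0.28 in conceptus 1 and −0.25 in conceptus 3, and the mitochondrially encoded genes at 0.78 in conceptus 2 and −0.79 in conceptus 4.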

How the data were processed

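Ribosome-depleted total RNA of 4 conceptuses was sequenced, 3 barcoded libraries to a chip, per the labels' protocols. The authors deposited RPKM values for 25197 features, and a second table of 5527 features at 5 RPKM or more in every library, with identical values. The unit is named only in the name of the second table. Libraries were strand specific, per the labels. Reads were placed on Oar_v3.1 according to the submitters' processing notes. Not given in the sources used here are the aligner, counter, annotation release, whether counting used the strand, and which chip held which library. Depth in reads is unknown, so no counting interval is given.

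The members, lists, pairs and tests were chosen with earlier results of these data known. Values were given in every conceptus for the 8 highest and 8 lowest members by mean, the 6 of largest and 6 of smallest ratio of highest to lowest conceptus, and both members of each pair. Other members appear by role group or order of conceptuses, chosen after their values were seen. Genes of comparison lists are taken from the 3 highest and the lowest, with TEAD4 and RPL5 added after their values were seen. RefSeq's table for ARS-UI_Ramb_v3.0, used for names and neighbours only, holds 64 of the 66 symbols. It holds 75 symbols of the MRPL or MRPS form, so the members are not the whole family. In that assembly 12 members overlap a protein-coding gene, among them MRPS12, MRPS34, MRPL55, MRPS18A and MRPS18C, and without stranded counting their reads could be shared.

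Log values use a pseudocount of 1. The variance test ran in limma 3.58.1 (R 4.3.3) and was tested on simulated data, where it missed all but the largest simulated shifts. All else ran in Python 3.11.15 with scipy 1.17.1 and pandas 2.3.3. Alternatives were other pseudocounts, filters and library scalings and leaving out each conceptus.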

Additional observations from a re-analysis of the deposited data

Results flagged for a closer look

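Each set of 4 values was checked for a conceptus whose gap to its nearest neighbour, as a share of the whole range, exceeds Dixon's 95% limit for 4 values. Among 69 sets (the 66 genes and 3 summaries of them), 2 stood out, where chance flags about 1 in 20 or 3.45 sets. MRPS33, a mitochondria-specific protein of the small subunit, was at 71.8 RPKM in conceptus 2 and at 38.3 to 40.2 RPKM in the others. MRPL39 was at 24.8 RPKM in conceptus 1 and at 19.2 to 19.8 RPKM in the others.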

How the results depend on the processing

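With 4 libraries and no read counts, depth sets an unknown part of the spread, and low genes are the least certain. All alternatives kept the members' median level and the MRPL minus MRPS difference within the spread between conceptuses. These were pseudocounts of 0.1 and 5, rescaled libraries, filters and left-out conceptuses. The 5 pairs, run with both pseudocounts and left-out conceptuses, kept a direction that neither could reverse, being the same in every conceptus. The count of 66 genes at 5 RPKM stayed the same with rescaled libraries and left-out conceptuses. As every member was at 5.36 RPKM or above in each library, filters and left-out conceptuses could not change which genes counted. Rescaling moves both subunits of a library alike, so it could not move their difference apart from the pseudocount. The difference of MRPL minus MRPS was 0.23 to 0.30 over the alternatives run. Scaling to a median ratio of 1 gave 7 members over 2 times, a median coefficient of variation of 18.05% and, in a comparison added after seeing the data, 24 members lowest in conceptus 3. Without 1 conceptus the first count was 6 to 9 and the median coefficient of variation 18.2% to 22.6%. The limma test then called 0 to 11 features, 11 without conceptus 1, 4 without conceptus 3 and 7 without conceptus 4, and 0 members in every setting run. The cause of these changes was not tested. All 145 values of the 29 genes given in every conceptus stayed within 1 SD in their means. Leaving out 1 of 4 values cannot move a mean by 1 SD, so that count is no test of robustness. The same holds for the members' median level and the MRPL minus MRPS difference when 1 conceptus is left out. No paired analysis was possible because the series has 1 group.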

Other observations

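Some members lie next to another mitochondrial gene in the RefSeq assembly ARS-UI_Ramb_v3.0, a description that was chosen after the data were examined. MRPL46 and MRPS11 are neighbours of each other. MRPL46 was at 45.5, 53.8, 38.0 and 38.55 RPKM and MRPS11 at 35.9, 28.3, 27.0 and 22.3 RPKM, so MRPL46 was the higher of the pair in each conceptus, and conceptus 2 was its highest library but not that of MRPS11. MRPL43, at 47.2 ± 14.2 RPKM, lies beside the gene of the mitochondrial DNA helicase TWNK, listed in the table under its older symbol C10orf2 at 7.44 RPKM. MRPL47, at 15.9 ± 4.16 RPKM, lies beside the complex I subunit gene NDUFB5, at 117 RPKM. MRPL35, at 24.6 to 35.1 RPKM, lies beside IMMT, an organiser of the inner membrane, at 50.1 RPKM.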
